A study of Mus musculus with 39 samples.

Results

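Late hind paw skin of paclitaxel-treated female mice was compared between the last pair of days sampled, with 3 libraries from day 26 set against 3 from day 16. These 6 libraries, chosen by their labelled sex, tissue and day and by no measured value, were 6 of 39 in the series and 6 of 24 from paw. All 6 came from C57 females aged 8 to 12 weeks that had received paclitaxel (PTX) at 3 mg/kg by 2 intraperitoneal injections. Days were counted from the last injection. The skin was taken as hind paw punch biopsies, a sample that mixes epidermis with whatever dermis, gland, fat and muscle the punch reached. Female paw libraries from days 2 and 6 after the same treatment are used for levels, as are those of vehicle females taken 1 day after injection. These groups had 3 libraries each, of the same strain and age, and the vehicle titles read WT control. Paw libraries of paclitaxel males from days 2, 6 and 15 (3 each, same dose and age) also entered the fit that set the spread. No vehicle group was analysed at days 16 or 26, so time since the drug and the age of the animals cannot be told apart. The labels state neither that replicates came from separate animals nor the hour of sampling. The spread behind each p-value may be technical.

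Paclitaxel holds microtubules in their assembled state and arrests dividing cells, and in patients it often damages the sensory nerve endings of the hands and feet. Epidermis renews itself by division in its basal layer, after which keratinocytes switch from the keratins Krt5 and Krt14 to Krt1 and Krt10 and build a cornified envelope of crosslinked proteins. After wounding or inflammation the same cells switch on an alternative programme. It includes the stress keratins Krt6a, Krt6b, Krt16 and Krt17, small proline-rich (Sprr) envelope proteins, antimicrobial peptides and chemokines, many of them under the transcription factors AP-1 and NF-kB.

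Between 16781618 and 20925174 reads fell in genes in each of the 6. Expression is given as CPM, the read count scaled to library size with TMM factors. Keratinocyte markers were abundant in all 6, with Krt5 at 2717 to 3787 CPM, Krt14 at 2751 to 3558 CPM and Krt9, a keratin of footpad epidermis, at 1536 to 6017 CPM. Skeletal muscle RNA varied within both groups. Its mean level over 24 muscle genes was 9.77, 9.41 and 5.21 log2 CPM in day 16 replicates 1, 2 and 3, and 8.18, 5.28 and 9.88 log2 CPM in day 26 replicates 1, 2 and 3. Day 16 replicate 3 and day 26 replicate 2 were therefore the libraries poorest in muscle. Day 16 replicate 3 also stood apart in hair genes, described further on.

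Between day 16 and day 26 more of the large differences were falls than rises. Of 15346 genes tested with edgeR's quasi-likelihood test, 86 were lower (0.56%) and 77 were higher (0.502%) on day 26 at a Benjamini-Hochberg adjusted p under 0.05, which together made 1.06%. Among the falls 40 exceeded 1 log2 unit, and among the rises 12 did. The median size was -0.95 log2 for falls and 0.57 log2 for rises, against a median of 0.00 over all genes tested. In all 163 called genes the 3 libraries of one day lay wholly above the 3 of the other. Over all genes tested that held for 9.44% with day 26 above and for 9.08% with day 26 below. Genes at an unadjusted p under 0.05 made up 12.6%.

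These calls used a spread estimated from all 24 paw libraries in 8 groups (vehicle females, paclitaxel females of days 2, 6, 16 and 26 and paclitaxel males of days 2, 6 and 15). In 12 of these (vehicle females and males) 0.539% to 0.632% of uniquely placed reads touched more than 1 gene, against 0.205% to 0.240% in the other 12. In those 12 paclitaxel female libraries alone, 7 genes were higher and 21 lower, all 28 among the 163. With the spread taken from the 6 compared libraries alone, edgeR called 0 genes in either direction (881 higher and 871 lower at an unadjusted p under 0.05), while DESeq2 on the same 6 called 194 higher and 235 lower. Leaving out 1 library at a time left 4 to 31 genes higher and 8 to 83 lower, with the fewest when day 26 replicate 1 was left out (4 and 8). Without day 16 replicate 1 the counts were 9 and 32, without day 16 replicate 2 they were 28 and 83, and without day 16 replicate 3 they were 6 and 19. Without day 26 replicate 2 they were 10 and 17, and without day 26 replicate 3 they were 31 and 23. The adjusted p-values below are from the 24 libraries, and the libraries on which a call rested are named beside it.

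**Figure D1:**
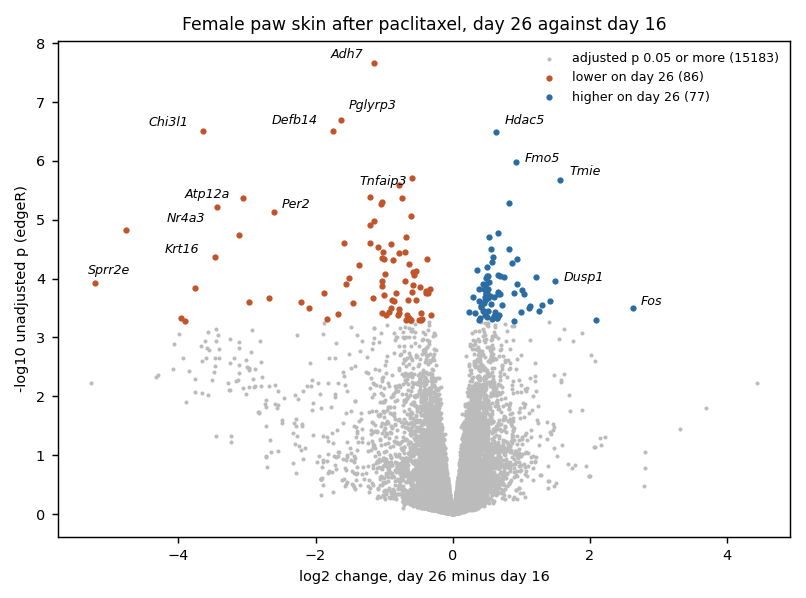
Each point is 1 of the 15346 genes tested, with the log2 change (day 26 minus day 16) on the horizontal axis and -log10 of the unadjusted edgeR p on the vertical axis. The 86 genes called lower (orange) reach further from 0 than the 77 called higher (blue).

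The 10 genes called in every one of the 6 leave-one-out fits were Adh7, Atp12a, Chi3l1, Defb14, Klf13, Nfkb2 and Pglyrp3, which fell, and Fmo5, Hdac5 and Tmie, which rose. They were picked out after their values were seen. In the 12 paclitaxel female libraries Atp12a was not called (adjusted p = 0.0576), and without both libraries poorest in muscle neither Atp12a nor Nfkb2 was. Of the other called genes, 5 were called in 5 of these fits, 8 in 4, 11 in 3, 16 in 2, 55 in 1 and 58 in 0.

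Adh7 had the smallest p of all genes. It encodes the alcohol dehydrogenase of epithelia that oxidises retinol, the first step from vitamin A to retinoic acid. Its level was 236, 254 and 258 CPM on day 16 and 117, 126 and 93.9 CPM on day 26. The fall of 1.15 ± 0.13 log2 units (standard error, here and below) had an adjusted p of 0.000335. Levels on earlier days were 119, 133 and 120 CPM on day 2 and 218, 204 and 156 CPM on day 6. All 3 day 26 libraries lay below all 3 of day 6, and day 16 above them. Vehicle libraries, taken 1 day after vehicle injection, had 77, 84.8 and 86.6 CPM. The vehicle libraries stood apart in that 0.582% to 0.632% of uniquely placed reads touched more than 1 gene, against 0.205% to 0.240% in the paclitaxel females, so vehicle levels are given as context with no test. Cyp1b1, a cytochrome P450 that acts on retinoids, steroids and aromatic compounds, stood at 24.5, 26 and 32 CPM on day 16 and at 12.5, 12.1 and 15.2 CPM on day 26. It fell by 1.05 ± 0.17 log2 units (edgeR adjusted p = 0.00558) and was named after its value was seen. Without day 26 replicate 1 its adjusted p was 0.0504. In a retinoid metabolism list of 26 tested genes, written after values had been seen, Adh7 was the only call (0.56% of all genes were called lower). The list's median change was 0.01 log2.

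Chi3l1, a secreted chitinase-like glycoprotein made in inflamed and remodelling tissue, fell by 3.65 ± 0.48 log2 units. It was at 43.8, 17.4 and 67.3 CPM on day 16 and at 2.71, 3.06 and 4.48 CPM on day 26 (edgeR adjusted p = 0.000974). Day 2 had 7.35, 3.28 and 6.37 CPM and day 6 had 10.4, 8.89 and 4.05 CPM, so each day 16 library was above every library of the other female days. Vehicle libraries held 2.83 to 5.73 CPM. Atp12a encodes the catalytic subunit of the non-gastric proton and potassium pump. It gave 10.6, 7.43 and 25.9 CPM on day 16 against 2.13, 1.19 and 1.91 CPM on day 26, a fall of 3.06 ± 0.48 log2 units (adjusted p = 0.00553). The 6 libraries of days 2 and 6 held 1.55 to 4.64 CPM, all below day 16.

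Some antimicrobial genes fell with them. Defb14, a beta-defensin peptide that kills bacteria, was at 16.8, 20 and 19.7 CPM on day 16 and at 6.82, 5.39 and 4.6 CPM on day 26 (-1.75 ± 0.23 log2, edgeR adjusted p = 0.000974). Its day 6 libraries held 7.79 to 17.5 CPM and its day 2 libraries 6.8 to 9.27 CPM. Pglyrp3, which binds and attacks the bacterial cell wall polymer peptidoglycan, fell by 1.62 ± 0.21 log2 units (adjusted p = 0.000974). It went from 15.6, 16.9 and 22.8 CPM to 5.99, 6.24 and 5.67 CPM, and days 2 and 6 lay between 5.55 and 9.71 CPM. The groups did not overlap for either gene. A list of 23 antimicrobial genes was written after values had been seen, so its count is a description. Of the 21 tested, 5 fell and 0 rose, against 0.56% and 0.502% of all genes. The other 3 were Defb6, Slpi and Nod2, the last a sensor of bacterial wall fragments. Defb6 fell from 55.7, 49.7 and 89.5 CPM to 27.6, 29.8 and 18.4 CPM (-1.36 ± 0.26 log2, adjusted p = 0.02), a call lost without day 16 replicate 3 (0.116) and without day 26 replicate 1 (0.0801), 2 (0.0564) or 3 (0.0903). Defb1 (0.05 ± 0.15) and Pglyrp4 (-0.07 ± 0.20) did not pass the test and their groups overlapped.

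Slpi, an inhibitor of neutrophil proteases that epithelia secrete, was at 14.8, 11.9 and 30.6 CPM on day 16 and at 1.46, 3.46 and 2.39 CPM on day 26 (-2.97 ± 0.66 log2, edgeR adjusted p = 0.0351). The call was lost on leaving out any library except day 16 replicate 2, with adjusted p from 0.064 to 0.183. S100a8 and S100a9, whose products form the antimicrobial protein calprotectin, had a larger spread. S100a9 was at 25.3, 10.8 and 57.4 CPM on day 16 and at 0.937, 0.964 and 0.478 CPM on day 26. Its log2 difference of -5.28 ± 1.70 did not pass (adjusted p = 0.157), although the groups did not overlap, and S100a8 (-3.66 ± 1.25, adjusted p = 0.181) behaved likewise. Lcn2, an iron-chelator binding protein, gave -2.93 ± 0.73 (adjusted p = 0.0598). Neutrophils share these 3 genes. Of the 16 neutrophil marker genes in the files, 7 were tested and 0 were called. Among the markers not shared with keratinocytes, Mpo and Elane had 0.0567 CPM or less in every library. The summed level of the neutrophil list was 3043 to 3703 CPM on day 16 and 3698 to 4588 CPM on day 26, of which Asprv1, a gene that keratinocytes also express, made up 2971 to 3561 and 3683 to 4572 CPM.

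**Figure D2:**
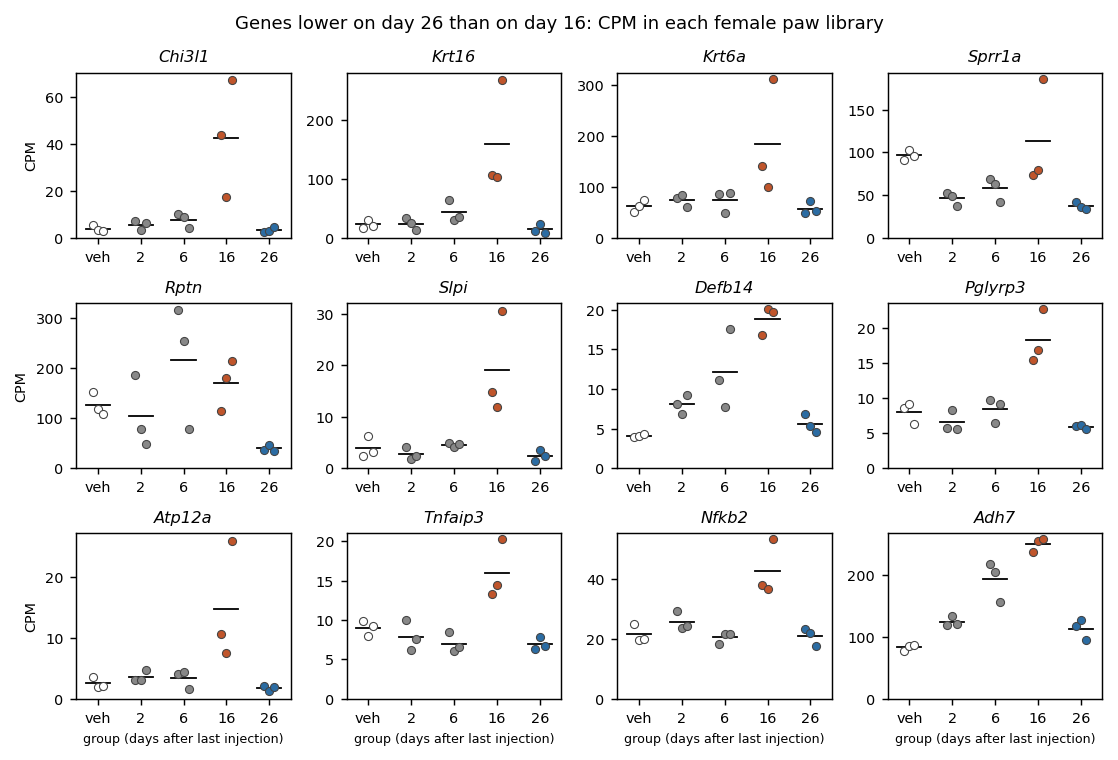
Each panel shows 1 gene, with CPM on a linear axis from 0 and 1 point per library for female vehicle (veh, taken 1 day after injection) and for days 2, 6, 16 and 26 after paclitaxel, with bars at group means. In each panel the 3 day 16 points (orange) lie above the 3 day 26 points (blue), and for Krt16 the 3 day 16 values of 106, 104 and 267 CPM stand above all 12 other points.

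The stress keratins showed the same direction. Krt16, a type I keratin that footpad skin also expresses, was at 106, 104 and 267 CPM on day 16 and at 11.1, 22.9 and 9.08 CPM on day 26, a fall of 3.47 ± 0.66 log2 units (edgeR adjusted p = 0.0179). Its partner Krt6a fell from 140, 100 and 311 CPM to 48.1, 71.8 and 52.1 CPM (-1.68 ± 0.39 log2, adjusted p = 0.045). Krt17 was at 255, 247 and 623 CPM and then at 176, 206 and 126 CPM, without overlap, but did not pass (-1.15 ± 0.28 log2, adjusted p = 0.0569). Krt6b gave -3.76 ± 1.28 log2 (adjusted p = 0.181), with 9.79, 10.6 and 36.8 CPM against 1.72, 2.04 and 0.418 CPM. In all of these, day 16 replicate 3 was the highest library. The Krt16 call was lost without it (-2.88 log2, adjusted p = 0.0794) and without day 26 replicate 1 (0.101) or 3 (0.0783). That of Krt6a was lost on leaving out any library except day 16 replicate 2 (0.0663 to 0.242). Keratins 6a and 6b are close copies of one another, as are keratins 16 and 17. Single-end reads of 50 bases can therefore be shared out within each pair in ways the counts do not show. Krt16 had 13.4 to 64.5 CPM over days 2 and 6 and Krt6a 49.7 to 87.6 CPM.

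Over the whole list of wound and stress keratinocyte genes, 6 of 44 tested members fell and 0 rose, against 0.56% and 0.502% of all genes. That list was chosen with earlier results of these data known, so its counts are a description. The members that fell were Chi3l1, Defb14, Krt16, Krt6a, Serpinb3c and Slpi. The median change was -1.04 log2 against 0.00 for all genes, 39 of 44 members had a negative change (50.1% of all genes), and 22 had all day 26 libraries below all day 16 libraries (9.08% of all genes). The list's mean level was 3.68, 3.49 and 4.32 log2 CPM in day 16 replicates 1 to 3 and 2.56, 2.87 and 2.32 log2 CPM in day 26 replicates 1 to 3. Leaving out day 16 replicate 3 brought the median to -0.59 log2 with 2 calls, and 2 calls were also left without day 26 replicate 1 or 3. Without day 16 replicate 1 or day 26 replicate 2 there were 3, and without day 16 replicate 2 there were 7. In bulk tissue, fewer cells of a type and less RNA per cell cannot be told apart. Serpinb3c, a protease inhibitor of the squamous epithelium cluster with near-identical neighbours, went from 4.3, 5.88 and 6.97 CPM to 0.989, 1.47 and 0.179 CPM (-2.68 ± 0.59 log2, edgeR adjusted p = 0.0328). It was called in none of the leave-one-out fits (0.0594 to 0.14), and its day 26 levels rested on few reads.

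Not all members of the list moved. The interleukin 1 family member Il1f5, which antagonises the others of its branch, gave -0.06 ± 0.17 log2 and the gap junction gene Gjb6 gave -0.15 ± 0.22 log2. The growth factor gene Ereg gave -0.06 ± 0.31 log2 and the alarmin Il33 gave 0.11 ± 0.27 log2, and in each of these 4 genes the groups overlapped. Fosl1, an AP-1 subunit, was at 6.1, 5.94 and 6.7 CPM on day 16 and at 2.45, 2.55 and 1.67 CPM on day 26 without overlap, but did not pass (-1.49 ± 0.44 log2, edgeR adjusted p = 0.12).

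Some envelope protein genes fell as well. In the cornified envelope list 4 of 35 tested members fell and 0 rose (0.56% and 0.502% of all genes), with a median of -0.06 log2. Sprr1a, an envelope crosslinking protein induced by stress, was at 73.2, 80 and 186 CPM on day 16 and at 42, 36.7 and 33.9 CPM on day 26 (-1.59 ± 0.29 log2, edgeR adjusted p = 0.0142). That call was lost without day 16 replicate 3 (0.0626) and without day 26 replicate 1 (0.0607), 2 (0.0617) or 3 (0.0614). Rptn, which encodes the envelope precursor repetin, went from 114, 179 and 214 CPM to 37.2, 46.8 and 35.1 CPM (-2.09 ± 0.48 log2, adjusted p = 0.0403), and was called in none of the leave-one-out fits (0.0585 to 0.179). Sprr2e and Sprr2i, near-identical neighbours, were called on few reads. Sprr2e had 48, 14 and 109 reads on day 16 and 0, 4 and 0 on day 26 (adjusted p = 0.0277), and Sprr2i 48, 12 and 89 against 3, 2 and 5 (adjusted p = 0.0304). Both calls were lost on leaving out any library except day 16 replicate 2 (0.056 to 0.139 for Sprr2e and 0.0585 to 0.139 for Sprr2i).

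The envelope genes named next showed no call. Loricrin (Lor) changed by 0.30 ± 0.31 log2 and the crosslinking enzyme Tgm1 by -0.13 ± 0.18 log2. The 12 tested genes of the Lce1 cluster lay between -0.06 and 0.34 log2. Ivl, which encodes involucrin, was the one without overlap in the other direction, at 54.5, 52.9 and 84 CPM on day 16 and 115, 115 and 95.9 CPM on day 26 (0.77 ± 0.22 log2, edgeR adjusted p = 0.101). Basal and differentiated keratinocyte lists had 0 calls among 14 and 20 tested genes, with medians of -0.13 and 0.10 log2.

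Among genes of NF-kB signalling 6 were called lower. These genes and the list of 41 members that holds them were chosen after values had been seen, so their count is a description. In that list 6 fell and 0 rose (0.56% and 0.502% of all genes), with a median of -0.24 log2. Tnfaip3, which encodes A20, an enzyme that edits ubiquitin chains and shuts NF-kB signalling down, was at 13.2, 14.5 and 20.3 CPM on day 16 and at 6.35, 7.77 and 6.69 CPM on day 26. Its fall of 1.21 ± 0.19 log2 units had an adjusted p of 0.00553 (edgeR) and 0.0504 without day 26 replicate 1. Nfkb2, which encodes the precursor of the p52 subunit, was at 38.1, 36.5 and 53.5 CPM and then at 23.2, 21.8 and 17.7 CPM (-1.03 ± 0.16 log2, adjusted p = 0.00558), and was called in all 6 leave-one-out fits (0.0119 to 0.0473). Its exons share bases with Psd on the other strand, as do those of Atp12a, Krt6a and Cry2 with unnamed transcripts, and the strand setting of the counts is not given in the sources used here. For both genes the libraries of days 2 and 6 lay below those of day 16, at 6.02 to 9.93 CPM for Tnfaip3 and 18.2 to 29.3 CPM for Nfkb2.

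The other 4 that fell were Zc3h12a, Irak3, Nod2 and Traf3. Zc3h12a, an RNase that destroys inflammatory mRNAs, went from 44, 36.1 and 55.1 CPM to 23.2, 25.1 and 17.8 CPM (-1.03 ± 0.21 log2, edgeR adjusted p = 0.0271). Irak3, which dampens Toll-like receptor signalling, went from 25.2, 26.2 and 30.2 CPM to 13.2, 14.5 and 16 CPM (-0.90 ± 0.16 log2, adjusted p = 0.0142). Nod2 went from 14.7, 14 and 16 CPM to 8.48, 6.41 and 6.15 CPM (-1.08 ± 0.20 log2, adjusted p = 0.0154). Traf3, an adaptor that holds back the non-canonical pathway, went from 42.5, 45.7 and 43.6 CPM to 29.1, 29.5 and 29.6 CPM (-0.58 ± 0.12 log2, adjusted p = 0.0239). None of the 4 overlapped between days. Traf3 was called in none of the leave-one-out fits (0.0591 to 0.113) and Zc3h12a only without day 16 replicate 2 (otherwise 0.0617 to 0.125). Irak3 lost its call without day 16 replicate 3 or day 26 replicate 1 or 2 (0.0617 to 0.0801). Nod2 lost it without day 16 replicate 3 or day 26 replicate 2 or 3 (0.0614 to 0.0712). The core subunit genes Nfkb1 (-0.01 ± 0.07) and Rela (-0.19 ± 0.09) and the inhibitor gene Nfkbia (-0.24 ± 0.16) did not pass.

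Promoters of genes that fell are shown because AP-1 and NF-kB are textbook regulators of the wound and inflammation programme. The windows printed below each hold the motif marked in them, which most windows of genes that fell lack. Their genes are not among the called members of the wound and stress keratinocyte list. RefSeq windows of the GRCm38.p6 build, from 250 bases before to 50 after the gene start, were found for 64 of the 86 genes that fell and 58 of the 77 that rose. The counts themselves were made on mm9, so the windows serve for sequence alone. The AP-1 motif TGANTCA, searched on both strands, was in 17.2% of windows of genes that fell, 5.17% of those that rose and 7.93% of all 27025 windows. The kappaB motif, added after values had been seen, was in 14.1%, 12.1% and 4.35%. TATAAA was in 21.9%, 8.62% and 14.2%, CCAAT in 31.2%, 39.7% and 37.9%, and the E-box CACGTG in 12.5%, 5.17% and 7.24%. TTTGAA was in 7.81%, 17.2% and 18.1%, and the CArG box in 0%, 0% and 1.57%. The antioxidant response element TGACNNNGC, also added later, was in 18.8%, 8.62% and 12.5%. No test was made of these shares, and a match of letters is a description and not a binding site. Capitals mark the AP-1 matches in Sprr1a (chr3:92485832-92486131, minus strand) and Adh7 (chr3:138217523-138217822, plus strand), and the kappaB matches in Tnfaip3 (chr10:19015361-19015660, minus strand) and Nfkb2 (chr19:46304487-46304786, plus strand), each printed 5′ to 3′ along the gene. In Sprr1a the first AP-1 match overlaps a match to the antioxidant response element on the other strand. Tnfaip3 also holds an AP-1 match that is not capitalised.
Sprr1a: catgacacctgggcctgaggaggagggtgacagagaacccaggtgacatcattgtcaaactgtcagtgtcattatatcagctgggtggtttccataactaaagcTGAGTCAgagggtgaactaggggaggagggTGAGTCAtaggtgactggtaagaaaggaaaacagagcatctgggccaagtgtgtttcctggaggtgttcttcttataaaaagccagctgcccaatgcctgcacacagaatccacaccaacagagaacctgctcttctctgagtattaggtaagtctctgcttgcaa
Adh7: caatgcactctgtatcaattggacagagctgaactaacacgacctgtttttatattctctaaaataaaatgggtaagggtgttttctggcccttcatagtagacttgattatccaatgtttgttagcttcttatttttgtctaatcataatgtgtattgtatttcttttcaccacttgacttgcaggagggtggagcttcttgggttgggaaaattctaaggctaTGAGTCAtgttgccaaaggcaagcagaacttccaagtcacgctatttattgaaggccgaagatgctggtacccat
Tnfaip3: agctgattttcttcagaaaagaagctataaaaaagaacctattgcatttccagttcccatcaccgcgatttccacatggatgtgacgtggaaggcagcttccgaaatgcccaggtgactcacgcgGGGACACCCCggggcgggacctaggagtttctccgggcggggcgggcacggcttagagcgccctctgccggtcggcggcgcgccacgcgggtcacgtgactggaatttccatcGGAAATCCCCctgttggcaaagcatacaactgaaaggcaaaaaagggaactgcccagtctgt
Nfkb2: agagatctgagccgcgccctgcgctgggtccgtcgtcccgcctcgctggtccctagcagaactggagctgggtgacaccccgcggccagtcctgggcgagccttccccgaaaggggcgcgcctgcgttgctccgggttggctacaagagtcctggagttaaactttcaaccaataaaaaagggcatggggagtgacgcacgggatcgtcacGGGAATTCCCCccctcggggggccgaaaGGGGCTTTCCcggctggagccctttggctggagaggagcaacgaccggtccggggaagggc

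Chemokine and cytokine genes gave 1 fall and 1 rise among 24 tested (0.56% and 0.502% of all genes), with a median of -0.50 log2. Ccl20, which attracts cells that carry the receptor CCR6, had 26, 33 and 73 reads on day 16 and 2, 3 and 9 reads on day 26 (-3.12 ± 0.55 log2, edgeR adjusted p = 0.0119). That call was lost without day 16 replicate 3 (0.061) and without day 26 replicate 1 (0.0736) or 2 (0.0621). Ccl22 was at 16.3, 10.4 and 24.9 CPM and then at 7.13, 7.32 and 3.88 CPM, without overlap and without passing (-1.49 ± 0.37 log2, adjusted p = 0.0569). Il34, the keratinocyte-made ligand on which Langerhans cells depend, rose from 43.4, 40.8 and 50 CPM to 87.4, 83.8 and 66.8 CPM (0.83 ± 0.15 log2, adjusted p = 0.0157). Its call was lost without day 16 replicate 1 (0.0594) or 2 (0.0511) and without day 26 replicate 1 (0.0801) or 2 (0.0619), and its exons share bases with an opposite-strand transcript. Langerhans cell and MHC class II genes had 0 calls among 18, and Cd207, their defining marker, was at 14.1 to 23.4 CPM on day 16 and at 15.1 to 28.5 CPM on day 26. Macrophage genes had 0 calls among 24 with a median of 0.01 log2.

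Among interferon-stimulated genes Irf7 was the only call. The gene, whose product is a transcription factor that amplifies the type I interferon response, was at 11.8, 14.6 and 14.7 CPM on day 16 and at 6.09, 5.67 and 6.09 CPM on day 26 (-1.20 ± 0.20 log2, edgeR adjusted p = 0.00933). Its call was lost without day 26 replicate 1 (0.0504) or 2 (0.0564). It was 1 call of 28 tested (0.56% of all genes were called lower), and the list's median was 0.11 log2. The interferon target Isg15 (0.06 ± 0.27) did not pass and its groups overlapped.

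Of 24 antioxidant and glutathione genes tested, 2 fell and 0 rose (0.56% and 0.502% of all genes), with a median of -0.16 log2. Slc7a11, the cystine importer, went from 38.6, 45.1 and 72.7 CPM to 20.6, 21.6 and 11 CPM (-1.56 ± 0.32 log2, edgeR adjusted p = 0.0277). Gclc, the catalytic subunit of the enzyme that starts glutathione synthesis, went from 61, 67.9 and 74.3 CPM to 45.8, 43.8 and 43 CPM (-0.61 ± 0.10 log2, adjusted p = 0.00728). Nfe2l2, which encodes NRF2, the transcription factor that drives both in stressed cells, went from 83.7, 90.9 and 111 CPM to 65.4, 61.5 and 65.7 CPM (-0.57 ± 0.11 log2, adjusted p = 0.0253) and was named after its value was seen. No library overlapped in these 3 genes. Gclc lost its call without day 16 replicate 3 (0.0527) or day 26 replicate 1 (0.0504). Slc7a11 and Nfe2l2 lost theirs without day 16 replicate 3 (0.13 for both) and without any 1 day 26 library (0.0648 to 0.106 and 0.0876 to 0.113). Prdx1 (-0.02 ± 0.10) and Gclm (-0.19 ± 0.11) did not pass. Nqo1, at 20.9, 21.2 and 19.4 CPM and then at 10.6, 11.8 and 13.4 CPM, did not overlap and did not pass (-0.78 ± 0.23 log2, adjusted p = 0.124).

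Clock genes gave 2 falls and 1 rise among 18 tested (0.56% and 0.502% of all genes), with a median of -0.27 log2. The labels give no hour of sampling, so day and hour cannot be told apart. Per2, a repressor in the circadian feedback loop, was at 80, 51.2 and 67.1 CPM on day 16 and at 8.95, 8.73 and 15 CPM on day 26, a fall of 2.60 ± 0.43 log2 units (edgeR adjusted p = 0.00654). Without day 26 replicate 1 or 2 its adjusted p was 0.0607 or 0.0544. Its levels were 28.1 to 50.5 CPM on day 2 and 20.5 to 25.3 CPM on day 6, so all day 16 libraries were above them and all day 26 libraries below. Cry2, its partner repressor, went from 147, 118 and 104 CPM to 79.5, 74.7 and 88.1 CPM (-0.60 ± 0.14 log2, adjusted p = 0.0489), and Npas2, an activator that can stand in for Clock, rose from 9.08, 9.27 and 11.5 CPM to 17.6, 23.2 and 16.5 CPM (0.94 ± 0.20 log2, adjusted p = 0.0277). Cry2 was called in none of the leave-one-out fits (0.0527 to 0.194), and Npas2 only without day 26 replicate 3 (otherwise 0.061 to 0.11). Wee1, a kinase gene that delays mitosis and is clock-controlled in mouse liver, was named after its value was seen. It fell from 43.6, 35.8 and 30.5 CPM to 18.9, 20.2 and 16.5 CPM (-0.98 ± 0.20 log2, adjusted p = 0.0253), a call lost without day 16 replicate 1 (0.0939) and without day 26 replicate 1 (0.101), 2 (0.0709) or 3 (0.0992).

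Not every clock gene differed between the days. The activator genes Arntl (0.24 ± 0.14) and Clock (-0.04 ± 0.17) and the repressor gene Nr1d1 (-0.01 ± 0.15) did not pass, and their groups overlapped. Dbp, an output gene of the clock, was at 64.4, 69 and 69.1 CPM on day 16 and at 48.3, 41.9 and 53.6 CPM on day 26 (-0.49 ± 0.16 log2, edgeR adjusted p = 0.15). Its groups did not overlap, but it did not pass. The same held for Hlf (-0.54 ± 0.15 log2, adjusted p = 0.097) and Cry1 (-0.70 ± 0.30 log2, adjusted p = 0.33), both lower on day 26. Over all genes 9.08% lay wholly lower. Per1, the closest relative of Per2, gave -0.35 ± 0.33 log2 with overlap.

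Genes of the immediate early response, transcribed without new protein synthesis once a cell is stimulated, did not move as one block. Fos was at 15.4, 11.2 and 13 CPM on day 16 and at 72.1, 106 and 67.6 CPM on day 26, the largest called rise, at 2.63 ± 0.60 log2 units (edgeR adjusted p = 0.0403). Dusp1, a phosphatase that switches off MAP kinases, rose from 99.4, 95.8 and 81.8 CPM to 230, 289 and 257 CPM (1.49 ± 0.31 log2, adjusted p = 0.0271). Neither was called in any leave-one-out fit (0.0681 to 0.145 for Fos and 0.0577 to 0.124 for Dusp1). Egr1, at 33.1, 41 and 39.2 CPM and then at 87.4, 119 and 124 CPM, did not overlap and did not pass (1.55 ± 0.40 log2, adjusted p = 0.0698). Fosb (1.04 ± 0.68), Zfp36 (0.65 ± 0.24), Ier2 (0.40 ± 0.18), Jun (0.37 ± 0.20) and Btg2 (0.34 ± 0.16) also lay higher without overlap and did not pass. Egr2 (-0.49 ± 0.23) lay lower without overlap and did not pass. Over all genes 9.44% lay wholly higher and 9.08% wholly lower on day 26. Levels of Fos varied widely elsewhere, at 19.6 to 61.4 CPM on day 2, 6.67 to 21.1 CPM on day 6 and 35.4 to 258 CPM in vehicle. In the list 2 of 20 rose and 0 fell (0.502% and 0.56% of all genes), and the median was 0.05 log2. As for the clock genes, day and unlabelled hour cannot be told apart. Jund (-0.04 ± 0.14) and Ier3 (0.03 ± 0.19) showed overlap.

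Nr4a3, a nuclear receptor gene induced with the same speed but not on that list, went the other way and was named after its value was seen. It had 187, 70 and 46 reads on day 16 and 10, 4 and 11 on day 26 (-3.43 ± 0.55 log2, edgeR adjusted p = 0.00587). Without day 26 replicate 1 or 2 its adjusted p was 0.0504 or 0.0513. Its relative Nr4a1 was at 72.6, 38 and 20 CPM on day 16 and at 24.8, 31.5 and 36.7 CPM on day 26, with overlap. Klf13, a zinc finger transcription factor, fell from 171, 180 and 153 CPM to 97.6, 96.1 and 98.2 CPM (-0.79 ± 0.12 log2, adjusted p = 0.00433). Its day 6 libraries, at 99.6 to 104 CPM, were below day 16 and those of day 2, at 128 to 161 CPM, overlapped with it.

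**Figure D3:**
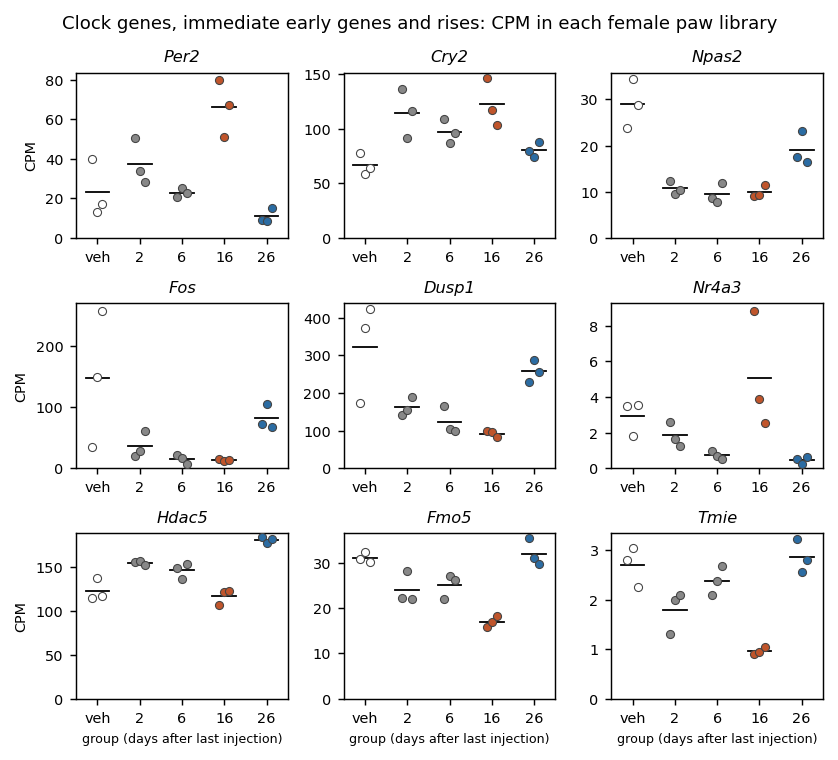
CPM on linear axes from 0 in each female paw library for 3 clock genes, 3 genes of the immediate early kind and 3 rises, with vehicle (veh) and days 2, 6, 16 and 26 after paclitaxel along the horizontal axis and bars at group means. The 3 Per2 points of day 26 lie below all those of days 2, 6 and 16, and Tmie is lower in the 3 day 16 libraries than in all 12 others.

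The rises were smaller. Hdac5, a class IIa histone deacetylase that represses transcription, rose from 106, 122 and 123 CPM to 185, 178 and 182 CPM (0.63 ± 0.08 log2, edgeR adjusted p = 0.000974). Fmo5, a flavin-containing monooxygenase, rose from 15.8, 17 and 18.2 CPM to 35.6, 31.1 and 29.7 CPM (0.92 ± 0.13 log2, adjusted p = 0.00265). Tmie, known from the mechanotransduction channel of hearing, had 19, 17 and 19 reads on day 16 and 62, 45 and 47 on day 26 (1.57 ± 0.23 log2, adjusted p = 0.00405). For Fmo5 and Tmie the day 16 libraries were below all 6 libraries of days 2 and 6, which held 22 to 28.2 CPM and 1.31 to 2.68 CPM. For Hdac5 the day 26 libraries were above all 6, which held 136 to 157 CPM. Mettl7a1, a methyltransferase-like gene named after its value was seen, rose from 66.9, 78 and 75.3 CPM to 141, 122 and 124 CPM (0.82 ± 0.13 log2, adjusted p = 0.00558, and 0.0504 without day 26 replicate 1).

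The next 7 rises were each called in at most 1 of the leave-one-out fits. Cyp17a1, a steroid hydroxylase and lyase, rose from 6.52, 6.21 and 7.03 CPM to 17.8, 13.9 and 14.2 CPM (1.22 ± 0.25 log2, edgeR adjusted p = 0.0253), and was called only without day 26 replicate 3 (otherwise 0.0617 to 0.113). Pgr, the progesterone receptor gene, rose from 2.69, 3.38 and 3.29 CPM to 7.29, 6.29 and 6.99 CPM (1.13 ± 0.26 log2, adjusted p = 0.0379, and 0.0666 to 0.138 with a library left out). The same held for Wnk4, a kinase of ion transport, at 2.74, 3.38 and 4.39 CPM and then 9.89, 6.86 and 9.2 CPM (1.30 ± 0.29 log2, adjusted p = 0.0379, and 0.0617 to 0.154). Days 2 and 6 held 2.95 to 4.41 CPM of Pgr and 3.84 to 9.17 CPM of Wnk4. Aplnr, the apelin receptor of blood vessels, rose by 1.02 ± 0.22 log2 units (adjusted p = 0.0311, called only without day 16 replicate 2 and otherwise 0.0585 to 0.135), while 0 of 16 endothelial genes were called. Ndufa4l2 (1.00 ± 0.23, adjusted p = 0.0439), Hs3st6, which sulfates heparan chains (1.05 ± 0.23, adjusted p = 0.0312), and Invs, which encodes the cilium protein inversin (1.27 ± 0.29, adjusted p = 0.0431), were called in none of these fits (0.0559 to 0.187 over the 3 genes). Invs shares exon bases with Tex10 and Wnk4 with an unnamed transcript, both on the other strand.

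Neuronal RNA is of interest because paclitaxel injures sensory endings, whose axons carry some mRNA into skin. Of 11 tested genes of sensory axons, 1 rose and 1 fell (0.502% and 0.56% of all genes). Stmn2, which binds tubulin in axons, was at 6.14, 5.88 and 6.53 CPM on day 16 and at 9.21, 13 and 11.6 CPM on day 26 (0.87 ± 0.17 log2, edgeR adjusted p = 0.0195). Tubb3, a beta-tubulin best known from neurons, went from 40.2, 68.3 and 70.8 CPM to 24.9, 27.6 and 24.8 CPM (-1.21 ± 0.22 log2, adjusted p = 0.0142). Stmn2 was called only without day 26 replicate 1 among the leave-one-out fits (otherwise 0.0578 to 0.104). Tubb3 lost its call without day 16 replicate 3 (0.0686) and without day 26 replicate 1 (0.0696), 2 (0.0513) or 3 (0.0537). The axon genes Prph (0.33 ± 0.20) and Nefl (0.10 ± 0.22) did not pass. Over the compared libraries they lay at 3.61 to 5.62 and 4.30 to 5.33 CPM, below Tubb3. Which cells the Tubb3 reads came from was not tested. Among 20 tubulin and microtubule genes Tubb3 was the only call (0.56% of all genes were called lower), and the list's median was -0.04 log2.

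Hair genes gave the most negative list medians, and 1 library carried most of that. All 47 tested hair keratin and keratin-associated protein genes had a negative change (50.1% of all genes did), with a median of -2.74 log2, yet 0 passed. Krt31, a keratin of the hair cortex, had 133, 58 and 731 reads on day 16 and 58, 38 and 39 on day 26 (-2.72 ± 0.97 log2, edgeR adjusted p = 0.204). The list's mean level was 1.56, 0.97 and 4.18 log2 CPM in day 16 replicates 1, 2 and 3 and 0.59, -0.56 and 0.68 log2 CPM in day 26 replicates 1, 2 and 3. Without day 16 replicate 3 the median was -1.0 log2. Inner root sheath genes, 0 of 14 called, went from a median of -2.02 to -0.30 log2 without it, and Tchh, which encodes trichohyalin of that sheath, was at 84.5, 118 and 984 CPM on day 16 and 62.2, 92.6 and 61 CPM on day 26. Krtap4-9, a hair protein gene outside the list, was called on 79, 43 and 394 reads against 20, 7 and 5 (-3.96 ± 0.92 log2, adjusted p = 0.0481), and lost the call without any 1 library except day 16 replicate 2 (0.0585 to 0.245). Regulators of the hair cycle had 0 calls among 28 and a median of -0.11 log2. The part of this library's hair content in the falls of stress keratinocyte genes was not tested.

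**Figure D4:**
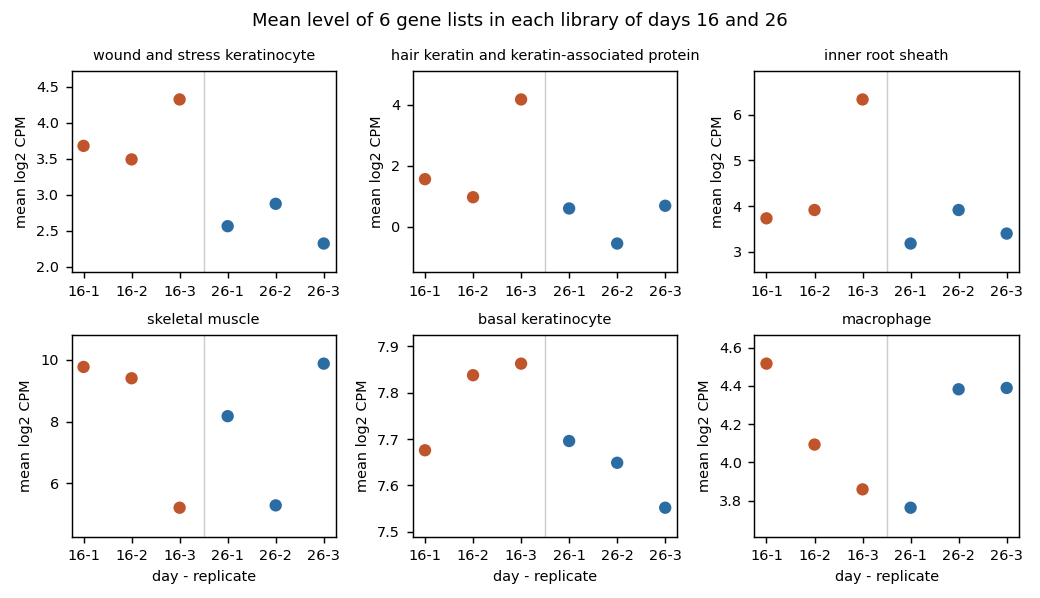
Mean level (log2 CPM, vertical axes that do not start at 0) of 6 gene lists in each library of days 16 (orange) and 26 (blue), with day and replicate on the horizontal axis. Wound and stress keratinocyte genes are higher in all 3 day 16 libraries, hair genes peak in day 16 replicate 3 at 4.18 log2 CPM, and skeletal muscle genes vary within both days.

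Of the 43 gene lists, 32 held no called gene. Cell division, the process that paclitaxel blocks, was among them. Mitosis genes had a median of 0.16 log2 over 30 members and DNA replication genes -0.10 log2 over 28, with Mki67 at 148, 169 and 149 CPM on day 16 and at 195, 210 and 145 CPM on day 26. Matrix genes (-0.15 log2, 30 tested), respiration genes (-0.08 log2, 36 tested), ribosomal protein genes (0.17 log2, 41 tested) and targets of p53 and DNA damage (0.01 log2, 20 tested) also had 0 calls. Skeletal muscle genes had a median of -0.38 log2 and 0 calls among 24. With the muscle level as a covariate 174 genes were higher and 166 lower (1.08%), the 163 among them. Eccrine sweat gland genes had 0 calls among 17 and a median of 0.38 log2, and their water channel gene Aqp5 was at 144, 170 and 144 CPM on day 16 and 202, 279 and 249 CPM on day 26 (0.68 log2, adjusted p = 0.181). The B cell marker Ms4a1 was at 0.119 CPM or less in all 6 libraries.

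**Figure D5:**
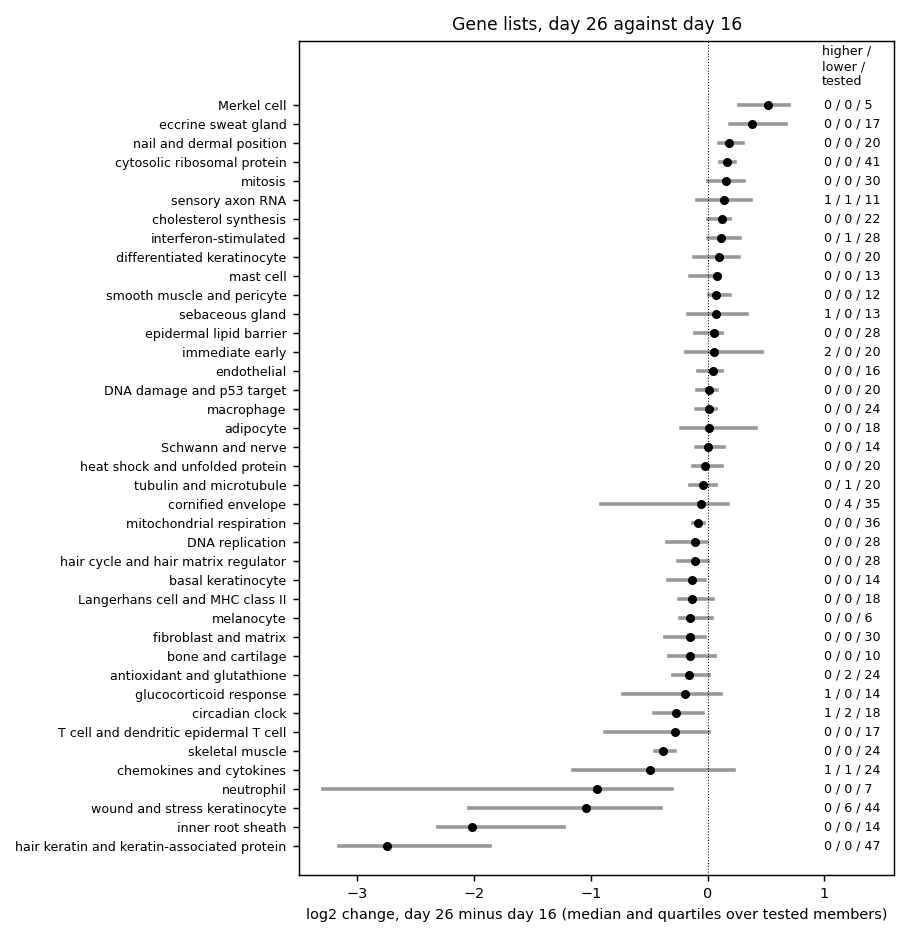
Median log2 change (points) and quartiles (bars) of tested members for 40 gene lists, day 26 minus day 16, with the numbers higher, lower and tested at the right. The lists of hair keratins (0 called), the inner root sheath (0 called) and wound and stress keratinocytes (6 lower of 44) have the lowest medians.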

How the data were processed

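Poly(A) RNA of hind paw punch biopsies was made into stranded libraries and sequenced from 1 end for 50 bases, per the labels' protocols. The deposited values are raw counts of reads per gene symbol with no normalization, made by the authors with bcl2fastq, TopHat2 on mm9 and HTSeq, per the submitters' processing notes. Tool versions, gene annotation and the strand setting of counting are not given in the sources used here. Each file held 22609 genes and 5 summary lines, which were left out. In the 6 compared libraries, 15.9% to 17.8% of uniquely placed reads lay outside genes and 0.205% to 0.220% touched more than 1. A chi-square test of every pair gave 13.5 or more per degree of freedom, so none was 1 library deposited again.

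All 24 paw libraries were fitted with edgeR 4.0.16 in R 4.3.3 (quasi-likelihood F test, TMM, filterByExpr, 1 coefficient for each group), which left 15346 genes, a common biological coefficient of variation of 0.244 and 16 residual degrees of freedom. Day 26 was contrasted with day 16, and p-values were adjusted by Benjamini-Hochberg over all genes tested, with a threshold of 0.05. The code was tested on simulated data. Standard errors are the log2 change divided by the square root of F. At these depths counting error is small for most genes. It is not small for the genes given in reads, nor for levels near or under a few CPM, such as those of Serpinb3c, Krt6b and S100a9 on day 26. Alternatives were other size factors, no filter, DESeq2 1.42.0, a replicate block, fewer libraries, a muscle covariate and each library left out. Leaving out both libraries poorest in muscle, and DESeq2 on only the 6 libraries, were added after seeing the data.

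Named genes followed a rule: the 10 largest rises and falls whose mean reached 1 log2 CPM and whose groups did not overlap, up to 6 called members per list and direction, the 3 defining members of each list, and the 10 smallest p. Not every such gene is reported, and others were named after their values were seen, as were 3 lists (NF-kB, retinoid, antimicrobial). The 6 libraries, the 43 lists and the rule were chosen with earlier results of these data known. Of 958 listed genes, 923 were in the files. Opposite-strand exons sharing at least 50 bases were looked up in a GRCm38 annotation for names only. No set test was made.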

Additional observations from a re-analysis of the deposited data

How the results depend on the processing

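The counts depended on which libraries set the spread. Against 77 genes higher and 86 lower, relative-log-expression size factors gave 82 and 86. No low-count filter gave 50 and 67. DESeq2 gave 184 and 240, and the muscle covariate 174 and 166. Only the 12 paclitaxel female libraries gave 7 and 21, and only the 6 compared libraries gave 0 and 0 with edgeR but 194 and 235 with DESeq2. Fewer residual degrees of freedom come with these smaller fits (8 and 4 against 16). Leaving out 1 library gave 4 to 31 higher and 8 to 83 lower. Leaving out both libraries poorest in muscle gave 3 and 6, of which Adh7, Chi3l1, Defb14, Klf13, Nr4a3 and Pglyrp3 fell and Fmo5, Hdac5 and Tmie rose. The cause of the other differences in counts was not tested. With the replicate number as a block the counts were 74 and 87. Same-numbered libraries of the 2 days had correlations of -0.10, -0.49 and -0.72 in their deviations from the group means. No library correlated best with the library of its own number. Whether the numbers pair the samples cannot be told from these correlations, because tissue content such as muscle also varied between libraries. Of 57 named genes called here, 57 stayed called under relative-log-expression size factors, DESeq2 and the muscle covariate, 51 with the block, 48 with no filter and 20 with 12 libraries. The smallest leave-one-out count among them was 12, without day 26 replicate 1. With 3 libraries a group, a gene that missed the threshold is not shown to be equal on both days.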
